A study of Mus musculus with 42 samples.

Results

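Fatty acid beta-oxidation was followed through 33 genes of its mitochondrial and peroxisomal machinery in mouse cerebellum, from control animals, animals on intermittent fasting, and animals fed freely again afterwards. The members were taken by symbol from a list of the pathway's genes, with no threshold on their measured values. That list was chosen with earlier results of these data known, and it leaves out other genes of the pathway, Cpt1a among them. All 33 members were found among the 35275 genes of the deposited tables. They comprise 5 acyl-CoA synthetases, 3 carnitine acyltransferases, 5 acyl-CoA dehydrogenases, 6 mitochondrial enzymes of the later steps, 4 enzymes for unsaturated fatty acids, 3 genes of the electron transfer flavoprotein chain, 4 peroxisomal enzymes, and a group of 3 with thioesterases and malonyl-CoA decarboxylase. All 33 passed the filter on low counts in every fit, and the lowest count of any member in any library was 94, for Ehhadh.

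RNA was sequenced from 30 libraries, 5 in each of 6 groups, of male C57BL/6 mice (C57/BL6NTac in the design text), with no engineered allele named. All were raised on free feeding to 3 months. The controls (AL) went on feeding freely to 6 months of age. From the same age, one group fasted 16 h of each day (IF16) and one fasted 24 h on alternate days (EOD), both for 3 months. Other mice, called refed AL, refed IF16 and refed EOD here and marked with an R in the plots, had the same 3 regimens followed by 2 months of free feeding, which ended at 8 months of age. By its title the study concerns metabolic switching of the brain under intermittent fasting, and these genes address whether transcripts of fat-burning enzymes differ in it. The labels do not state that each replicate is a separate mouse, nor the hour of collection relative to the last meal, and p-values measure only the spread between the libraries.

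In beta-oxidation, a fatty acid is joined to coenzyme A, carried into the mitochondrion as a carnitine ester, and shortened by repeated rounds of dehydrogenation, hydration, a second dehydrogenation and thiolytic cleavage, with the first electrons passed through electron transfer flavoprotein to the respiratory chain. Peroxisomes shorten very-long-chain and branched acids first. In the liver of a fasting animal the pathway is induced through the nuclear receptor PPAR-alpha, whereas brain burns little fat, and in it the pathway is attributed mainly to astrocytes.

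Promoter letters are shown for the members that the comparisons below turn on and for one linked pair. RefSeq windows (build GRCm38.p6) of 250 bases before the annotated start were found for 29 of the 33 members, and bases that lie inside a deposited gene model were left out of what is printed. Crat, Decr1, Acaa2 and Hsd17b4 had no entry. Hadha and Hadhb, the subunits of the mitochondrial trifunctional protein, lie head to head on chromosome 5, and only 85 bases separate their deposited gene models, so the first line below is the whole interval between them. Acsl4 and Mlycd are shown because they led the differences of the fasted groups, and Etfb and Etfdh because they carry an element typical of genes for mitochondrial proteins. Capitals mark matches to CCAAT or GCGCANGCG, searched on both strands, and all lines read 5′ to 3′ on the gene's strand (for the first, that of Hadhb).
Hadhb to Hadha interval, chr5:30155163-30155247, plus strand: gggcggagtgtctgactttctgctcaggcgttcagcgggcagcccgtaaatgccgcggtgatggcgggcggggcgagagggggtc
Acsl4, chrX:142390536-142390785, minus strand: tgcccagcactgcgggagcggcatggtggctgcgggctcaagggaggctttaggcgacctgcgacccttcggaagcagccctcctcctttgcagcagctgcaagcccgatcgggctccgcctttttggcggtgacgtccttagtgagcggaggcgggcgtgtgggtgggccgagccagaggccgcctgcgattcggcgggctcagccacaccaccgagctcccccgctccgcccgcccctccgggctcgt
Mlycd, chr8:119394644-119394877, plus strand: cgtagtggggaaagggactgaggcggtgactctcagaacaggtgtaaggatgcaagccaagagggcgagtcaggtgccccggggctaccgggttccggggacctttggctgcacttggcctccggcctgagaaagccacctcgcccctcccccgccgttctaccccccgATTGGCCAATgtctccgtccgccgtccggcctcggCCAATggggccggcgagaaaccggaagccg
Etfb, chr7:43443822-43444071, plus strand: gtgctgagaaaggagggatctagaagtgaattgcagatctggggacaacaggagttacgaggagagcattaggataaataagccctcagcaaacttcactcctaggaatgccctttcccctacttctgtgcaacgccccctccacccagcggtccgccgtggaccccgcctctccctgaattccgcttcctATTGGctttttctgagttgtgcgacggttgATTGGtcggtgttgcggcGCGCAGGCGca
Etfdh, chr3:79628864-79629017, minus strand: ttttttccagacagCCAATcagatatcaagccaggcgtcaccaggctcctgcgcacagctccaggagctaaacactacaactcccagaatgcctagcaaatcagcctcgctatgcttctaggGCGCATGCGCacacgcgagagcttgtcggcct

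The PPAR-type direct repeat AGGNCANAGGNCA had no match in the windows of the 29 members, against 0.212% of the 15115 windows of tested genes. CACGTG had none either, against 7.754%. CCAAT occurred in the windows of 15 of 29 members, or 50% of the 32 member windows, against 34.522% of windows of tested genes. GCGCANGCG was found for Acadm, Etfb and Etfdh, or 9.375% of member windows against 9.368%, and in Etfdh the same letters matched on both strands, 1 base apart. TCAAGGTCA, the letters of an estrogen-related-receptor element, was found for Acsl6 alone, or 3.125% of member windows against 0.278%. Acsl6 has more than 1 window, and the match lay in 1 of them, 167 to 159 bases before the start. The Acsl4 window and the Hadhb to Hadha interval held no match to these 5 motifs. Median GC content was 59.8% for the members and 59.2% for tested genes.

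Library totals ranged from 26799825 to 36167435 reads counted in genes. Levels are given as nFPKM, that is counts divided by gene length and by library size after one scaling (TMM) of all 30 libraries, so that genes and groups can be set side by side. Granule cell and Purkinje cell markers were present in every library, at summed levels of at least 1260 and 842 nFPKM. Choroid plexus markers varied from 50.8 to 3660 nFPKM between libraries, and EOD replicate 1 held liver transcripts (summed level 63.0 nFPKM, against 13.4 in refed EOD replicate 5 and at most 5.22 elsewhere). Libraries also differed in how counts depended on gene length: the slope of log2 counts on log2 length, relative to the mean library, was lowest in AL replicate 4 (-0.19), IF16 replicate 1 (-0.15) and AL replicate 5 (-0.14), and highest in EOD replicate 4 (0.095). In bulk tissue, fewer cells of a type and less RNA per cell cannot be told apart.

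Levels of the members in AL spanned from Acot7 at 258 ± 65.8 nFPKM (SD, n = 5) to Ehhadh at 1.57 ± 0.125 nFPKM. Acot7, a cytosolic acyl-CoA thioesterase abundant in brain, stood at 199.5, 215, 217, 347 and 309 nFPKM in AL replicates 1 to 5, above every other member in every library. Etfb, which encodes the beta subunit of electron transfer flavoprotein, followed at 42.5, 50.3, 55.7, 84.2 and 66.3 nFPKM, and its partner Etfa at 42.6, 46.5, 47.7, 51.8 and 50.8 nFPKM. The Etfb and Etfa ranges overlapped, with a ratio of 1.24 ± 0.246 (SD, n = 5). Replicates 4 and 5 were the highest of the AL libraries for Acot7, Etfb and Etfa alike.

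The order continued with Cpt1c (40.5 ± 5.83 nFPKM, SD, n = 5), the neuronal carnitine acyltransferase of the endoplasmic reticulum, with Eci1 and Hsd17b10, and with Acsl6 and Acsl3, each overlapping its neighbour. Of the 32 steps from one member to the next, those from Acot7 to Etfb, from Acsl3 to Hsd17b4, from Acadvl to Acadsb, from Acsl5 to Acot2 and from Acot2 to Ehhadh separated libraries without overlap. At the lower end, Acsl5 stood at 3.90, 3.38, 3.38, 4.50 and 3.33 nFPKM in AL replicates 1 to 5. The mitochondrial thioesterase Acot2 stood at 2.29, 2.37, 2.46, 2.83 and 2.78 nFPKM, and Ehhadh, the peroxisomal L-bifunctional enzyme, at 1.46, 1.77, 1.55, 1.48 and 1.59 nFPKM. Reads of Acot2, Acaa1a and Eci2 may be shared with their near-identical copies Acot1, Acaa1b and Eci3, so these levels are uncertain.

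**Figure D1:**
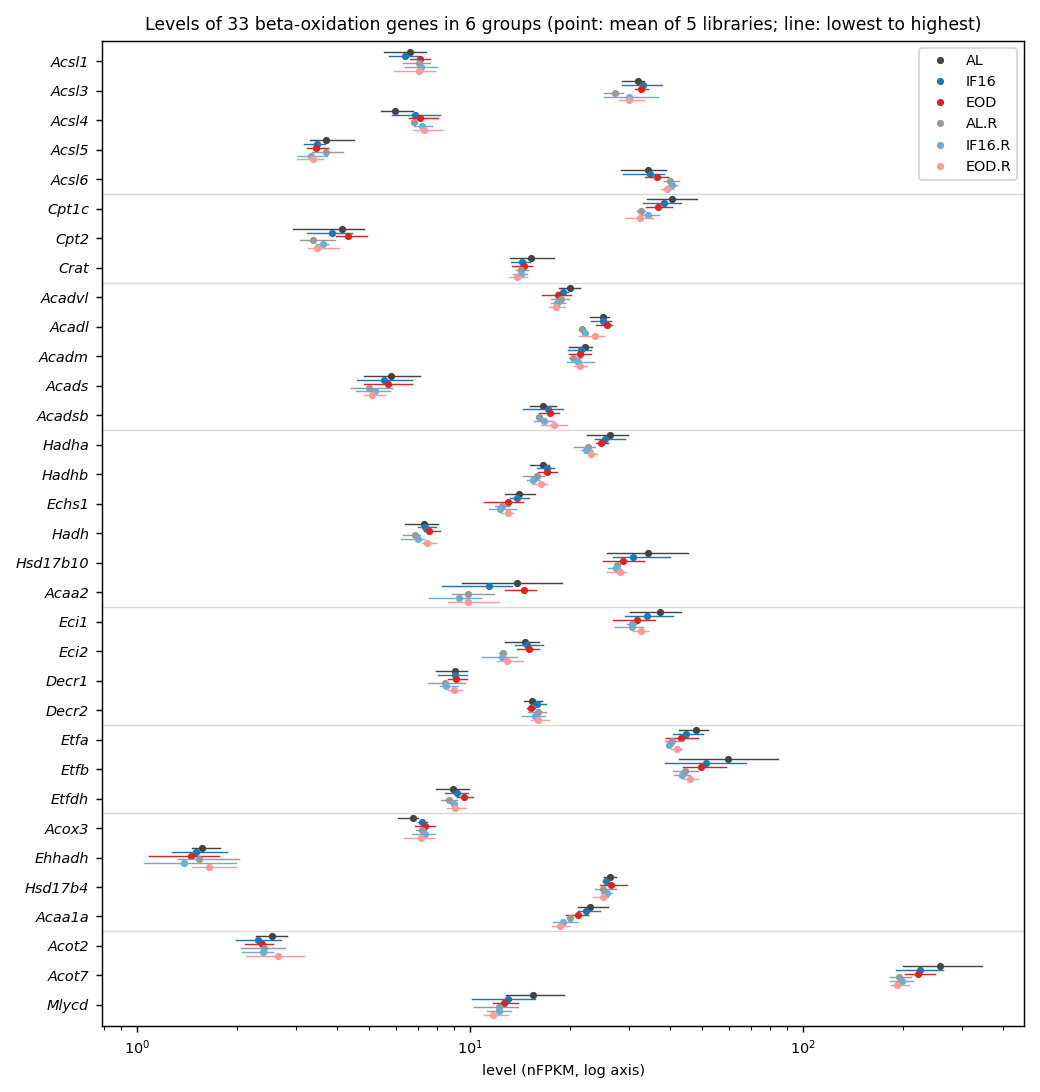
Level of each of the 33 members (nFPKM, log axis) in the 6 groups, as the mean of 5 libraries (point) with the lowest and highest library (line), with thin rules between roles. Acot7 is the highest member in every library, and Ehhadh and Acot2 lie at the lower end.

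Among the acyl-CoA synthetases, which start the pathway by activating free fatty acids, the neuronal Acsl6 and Acsl3 made up most of the summed level. In AL, Acsl6 held 41.3% ± 3.03 and Acsl3 39.0% ± 3.08 of it (SD, n = 5), and Acsl1, the main form of liver and heart, 8.02% ± 0.669. The mRNA of Cpt1c exceeded that of Cpt1a, the carnitine acyltransferase that controls mitochondrial entry in astrocytes and liver, 5.71 ± 1.26-fold in AL. Hadhb, which codes for the beta subunit of the trifunctional protein, stood at 0.634 ± 0.0545 of Hadha (SD, n = 5). That ratio was lowest in AL replicate 4 (0.577) and highest in AL replicate 1 (0.713).

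At the end of the regimens, no beta-oxidation member was called in either fasting group. In IF16 against AL, 0 of 33 members passed an adjusted p of 0.05 (edgeR quasi-likelihood test, Benjamini-Hochberg over 16577 genes), where 0.0483% of all genes did. EOD against AL likewise gave 0 of 33, where 0.0664% of all genes were called, and EOD against IF16 gave 0 of 33, where the share of all genes was 0%. DESeq2 also called 0 of 33 in each. Members at an unadjusted p under 0.05 numbered 1, 3 and 1 in these comparisons, beside 9.92%, 14.4% and 3.62% of all genes. The smallest adjusted p among members was 0.48, 0.309 and 0.977. Both fasting comparisons share the AL libraries.

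The precision was enough to bound the differences. The 95% interval lay within 1.5-fold in either direction for 32 of 33 members in IF16 against AL, where 75.7% of all genes met that bound, for 32 of 33 in EOD against AL, where 72% did, and for 32 of 33 in EOD against IF16, where 78.5% did. The exceptions were Acaa2 in IF16 (interval -0.61 to 0.057 on the log2 scale), Etfb in EOD (-0.63 to 0.080) and Acaa2 in EOD against IF16 (0.011 to 0.68). Fold changes of members ranged from -0.28 to 0.21 in IF16 and from -0.29 to 0.26 in EOD (log2), with medians of -0.047 and -0.034 beside -0.0062 and -0.018 over all genes tested. No member separated AL from IF16 or EOD without overlap, where 0.802% of all genes were higher and 0.706% lower without overlap in IF16, and 1.34% and 1.58% in EOD.

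**Figure D2:**
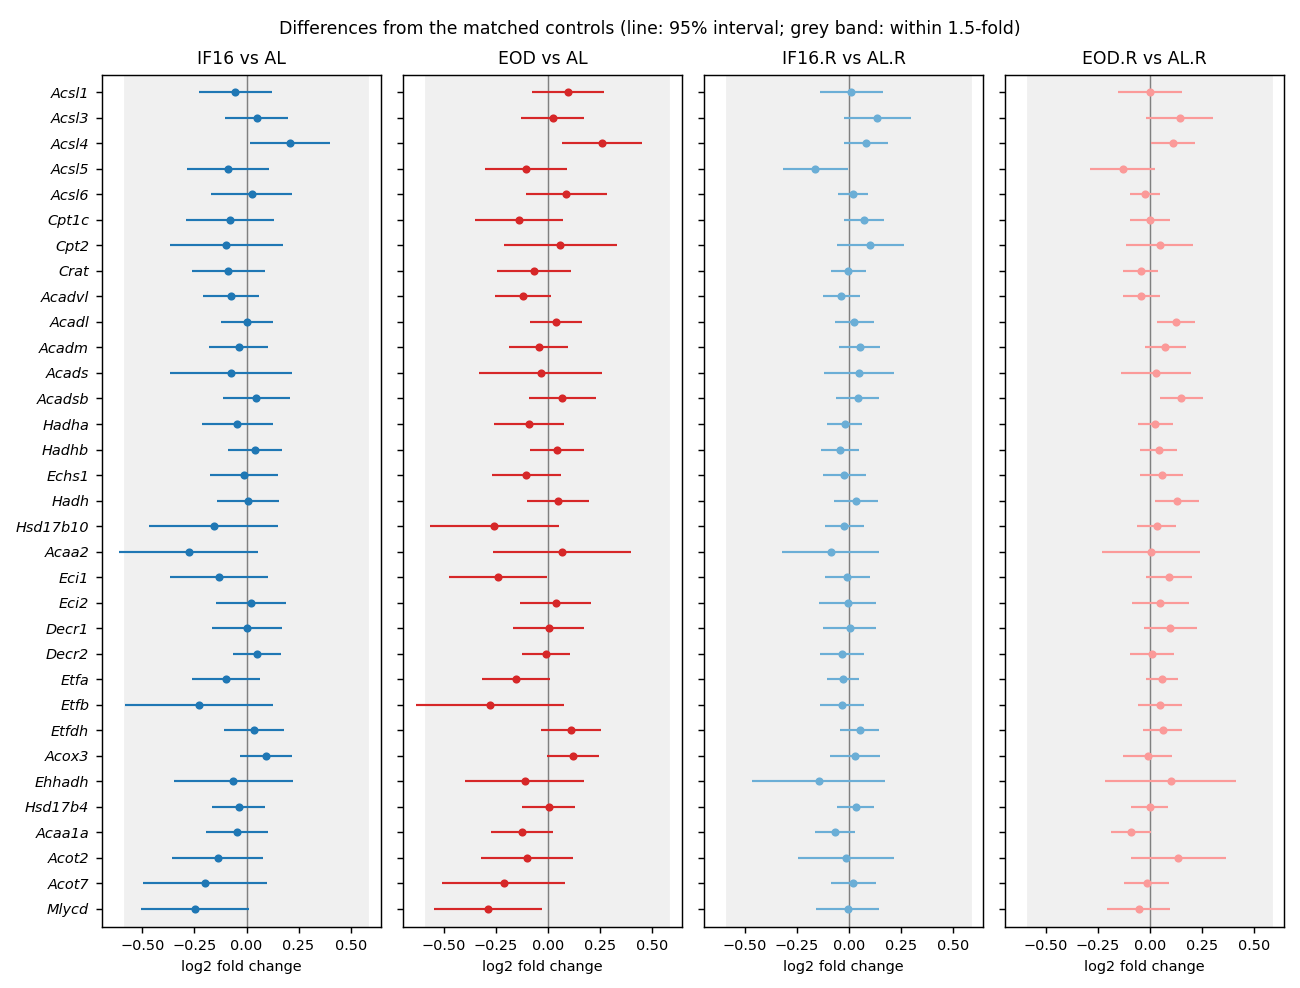
Log2 fold change of each member against the matched controls, with 95% intervals (lines), for IF16 and EOD against AL and for refed IF16 and refed EOD against refed AL, where the grey band marks 1.5-fold in either direction. The intervals reach past the band for Acaa2 in IF16 and Etfb in EOD, and are narrower in the refed set, where all 33 lie inside it.

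Acsl4, an acyl-CoA synthetase that prefers arachidonate and lies on the X chromosome (ENSMUSG00000031278, chrX:142317993-142390535, minus strand), had the smallest p of the members in both fasting comparisons. It stood at 6.75, 5.82, 6.10, 5.43 and 5.64 nFPKM in AL replicates 1 to 5, at 5.85, 6.18, 8.13, 6.90 and 7.29 nFPKM in IF16 and at 6.96, 7.35, 6.58, 8.01 and 6.67 nFPKM in EOD. In each fasting group 3 of 5 libraries lay above all AL libraries and 2 lay inside their range. The difference did not pass the correction in IF16 (log2 fold change 0.21, SE 0.091, unadjusted p = 0.035, adjusted p = 0.48) or in EOD (log2 fold change 0.26, SE 0.091, unadjusted p = 0.0113, adjusted p = 0.309). With the length gradient as a covariate the value in EOD fell to 0.12. The other synthetases lay between -0.10 and 0.10 (log2) in both comparisons, with Acsl1 the widest apart between the regimens (log2 fold change 0.15 in EOD against IF16, adjusted p = 0.977).

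Of the carnitine acyltransferases, Cpt1c, which lies in the endoplasmic reticulum, gave -0.080 and -0.14 (log2) in IF16 and EOD. Cpt2, which reforms acyl-CoA inside the mitochondrion, gave -0.097 and 0.061, and Crat, which exchanges acetyl groups with carnitine, -0.088 and -0.066. The smallest adjusted p of these genes in the fasting comparisons was 0.453. Mlycd (ENSMUSG00000074064, chr8:119394878-119411102, plus strand) encodes malonyl-CoA decarboxylase, which removes the inhibitor of mitochondrial entry. Its levels were 12.8, 13.4, 15.3, 19.2 and 16.8 nFPKM in AL, 15.7, 14.9, 10.1, 12.01 and 12.5 nFPKM in IF16 and 13.1, 11.7, 12.8, 12.1 and 13.96 nFPKM in EOD. In both fasting groups 3 libraries lay below all AL libraries, and the high end of AL was set by replicates 4 and 5. The tests gave log2 fold change -0.29, SE 0.12, unadjusted p = 0.032, adjusted p = 0.329 in EOD and log2 fold change -0.25, adjusted p = 0.517 in IF16. With the length gradient as a covariate the EOD value was -0.077.

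The acyl-CoA dehydrogenases, which take the first electrons from chains of different length, stayed between -0.12 (Acadvl, very long chains, in EOD) and 0.071 (Acadsb, short branched chains, in EOD) on the log2 scale. Acadl and Acadm, for long and medium chains, gave 0.042 and -0.044 in EOD, with intervals of -0.083 to 0.17 and -0.19 to 0.099. Acads, for short chains, gave -0.034. None of the 5 had an unadjusted p under 0.05.

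Among the enzymes of the later mitochondrial steps, Hadha and Hadhb gave -0.089 and 0.046 in EOD. Echs1, the short-chain enoyl-CoA hydratase, gave -0.10, Hadh, the hydroxyacyl-CoA dehydrogenase, 0.051, and Hsd17b10, a hydroxyacyl-CoA dehydrogenase that is also a subunit of mitochondrial RNase P, -0.26. Acaa2, the mitochondrial ketoacyl-CoA thiolase, differed most between the regimens. Its levels were 9.51, 12.5, 13.99, 18.99 and 14.2 nFPKM in AL, 13.4, 11.7, 8.27, 13.4 and 10.4 nFPKM in IF16 and 15.8, 12.7, 15.1, 13.2 and 15.8 nFPKM in EOD. EOD had 3 libraries above all IF16 libraries, and AL spread over both groups. EOD against IF16 gave log2 fold change 0.34, SE 0.16, unadjusted p = 0.0438, adjusted p = 0.977. That value was 0.41 without AL replicates 4 and 5 and IF16 replicate 1, 0.47 with the length gradient as a covariate, 0.14 with choroid plexus content as a covariate and 0.25 without IF16 replicate 3, and it was not called in any of these fits.

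Eci1 (ENSMUSG00000024132, chr17:24426683-24439316, plus strand), a mitochondrial enoyl-CoA isomerase that shifts the double bonds of unsaturated chains, had the third-smallest p in EOD. It stood at 30.3, 36.01, 35.7, 43.2 and 41.5 nFPKM in AL, 40.7, 36.8, 29.3, 32.04 and 31.3 nFPKM in IF16 and 30.9, 30.4, 34.1, 27.02 and 36.1 nFPKM in EOD. The EOD libraries overlapped the AL libraries, 1 of them lying below all of these. EOD against AL gave log2 fold change -0.24, SE 0.11, unadjusted p = 0.0494, adjusted p = 0.346, and -0.037 (log2) with the length gradient as a covariate. Eci2, Decr1 and the peroxisomal Decr2 lay between -0.0069 and 0.051 in both comparisons.

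For the electron transfer flavoprotein chain, Etfa gave -0.100 and -0.15, Etfb -0.23 and -0.28, and Etfdh, which hands the electrons to ubiquinone, 0.035 and 0.11 (log2, IF16 then EOD). Etfb stood at 67.5, 53.6, 38.5, 48.6 and 47.1 nFPKM in IF16 and 46.1, 45.6, 52.6, 43.6 and 58.99 nFPKM in EOD, inside the AL range except for IF16 replicate 3. Among the peroxisomal members, Acox3, an oxidase of branched acyl-CoA, gave 0.093 and 0.12, with 4 of 5 fasted libraries above all AL libraries in each group and an adjusted p of 0.35 in EOD. Hsd17b4, the D-bifunctional enzyme, gave -0.037 and 0.0054, the thiolase Acaa1a -0.047 and -0.12, and Ehhadh -0.064 and -0.11. Of the thioesterases, Acot2 gave -0.14 and -0.098. Acot7 gave -0.20 and -0.21, with EOD libraries at 202, 208, 224, 229.7 and 249.7 nFPKM.

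Members with shorter gene models had the lower fold changes. Across the 33 members, Pearson's r between log2 fold change and log2 length was 0.616 in IF16 and 0.595 in EOD, against 0.168 and 0.324 across all 16577 genes; these are descriptions over genes of the same libraries, and both comparisons share AL. The 17 members of up to the median length of 2933 bases had a median of -0.097 in IF16 and -0.099 in EOD, and the 16 longer ones 0.0051 and 0.035. Within AL, replicate 4, of the lowest length gradient, was the highest library for 17 of 33 members, and replicate 1, with the highest gradient of its group, was the lowest for 21. In IF16, replicate 1, again of the lowest gradient, was the highest for 17 members, and replicate 3, of the highest, was the lowest for 18. Such counts were not taken over all genes, so these cannot be called particular to the members. Without AL replicates 4 and 5 and IF16 replicate 1, no member had an unadjusted p under 0.05 in IF16 or EOD against AL. With the gradient as a covariate, EOD against AL had 4 higher and 0 lower at that level, and 0 of 33 were called in each of these fits. The shares of all genes at that level in these fits are not given here, so the counts are not a result about the members.

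After 2 months of free feeding, again no member was called. Refed IF16 against refed AL gave 0 of 33, where 0.17% of 16444 genes were called, refed EOD against refed AL 0 of 33, where 0.0426% were, and refed EOD against refed IF16 0 of 33, where 0.0182% were. DESeq2 also called 0 of 33 in each. At an unadjusted p under 0.05 there were 1, 4 and 3 members, beside 9.58%, 8.5% and 9.75% of all genes. The smallest adjusted p was 0.511, 0.392 and 0.454. The refed libraries were more alike, with a biological coefficient of variation of 8.05% against 14.3% in the first set, and the 95% interval of all 33 members lay within 1.5-fold in all 3 comparisons, where 83.9%, 84.6% and 84.5% of all genes met that bound. Medians over the members were -0.0018, 0.042 and 0.028 (log2), beside -0.0023, 0.00067 and 0.0044 over all genes.

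In refed EOD, the 4 members at an unadjusted p under 0.05 were all higher than in refed AL, where 4.51% of all genes were higher at that level, and 23 of 33 members had a log2 fold change above 0, where 49.7% of all genes were below 0. Acadsb (ENSMUSG00000030861, chr7:131410601-131446211, plus strand) stood at 16.5, 16.01, 15.96, 16.4 and 15.96 nFPKM in refed AL and 16.3, 17.9, 18.4, 19.6 and 17.2 nFPKM in refed EOD, with 4 of 5 refed EOD libraries above all refed AL libraries (log2 fold change 0.15, SE 0.049, unadjusted p = 0.00673, adjusted p = 0.392). Acadl (ENSMUSG00000026003, chr1:66830839-66863277, minus strand) stood at 21.4, 22.1, 21.9, 21.6 and 21.99 nFPKM and 21.3, 25.3, 23.9, 25.1 and 23.00 nFPKM, with refed EOD replicate 1 below all refed AL libraries and the other 4 above them (log2 fold change 0.13, SE 0.044, unadjusted p = 0.00981, adjusted p = 0.413). Both encode acyl-CoA dehydrogenases. Hadh (ENSMUSG00000027984, chr3:131233419-131272101, minus strand) stood at 6.82, 7.08, 6.92, 7.00 and 6.31 nFPKM and 7.39, 7.45, 7.95, 7.20 and 7.30 nFPKM (log2 fold change 0.13, SE 0.050, unadjusted p = 0.0172, adjusted p = 0.457). It was the 1 member whose groups did not overlap, where 0.937% of all genes were higher without overlap. Acsl4 was the fourth (log2 fold change 0.11, unadjusted p = 0.0435), at 6.79, 6.86, 6.88, 6.76 and 6.64 nFPKM in refed AL and 7.00, 6.77, 7.24, 8.23 and 7.27 nFPKM in refed EOD. Astrocyte and Bergmann glia markers moved in the same direction: all 7 had a fold change above 0 in refed EOD and 1 was called, with summed levels of 577 to 620 nFPKM in refed EOD and 531 to 572 nFPKM in refed AL. In refed IF16 all 7 were above 0 as well and 2 were called, with a median of 0.10 against 0.077 in refed EOD, whereas the members' median in refed IF16 was -0.0018. Red blood cell markers were lower in refed EOD, 5 of 5 at an unadjusted p under 0.05 with a median of -1.61, and 0 were called. Other lists shared the upward direction in refed EOD, with 0 called. Above 0 were 11 of 11 choroid plexus, 6 of 6 microglia, 5 of 6 oligodendrocyte and 4 of 5 endothelium markers (medians 0.20, 0.072, 0.13 and 0.037). Granule cell and Purkinje cell markers had 3 of 6 and 4 of 6 above 0 (medians 0.0032 and 0.0073). The part of these markers in the result was not tested.

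**Figure D3:**
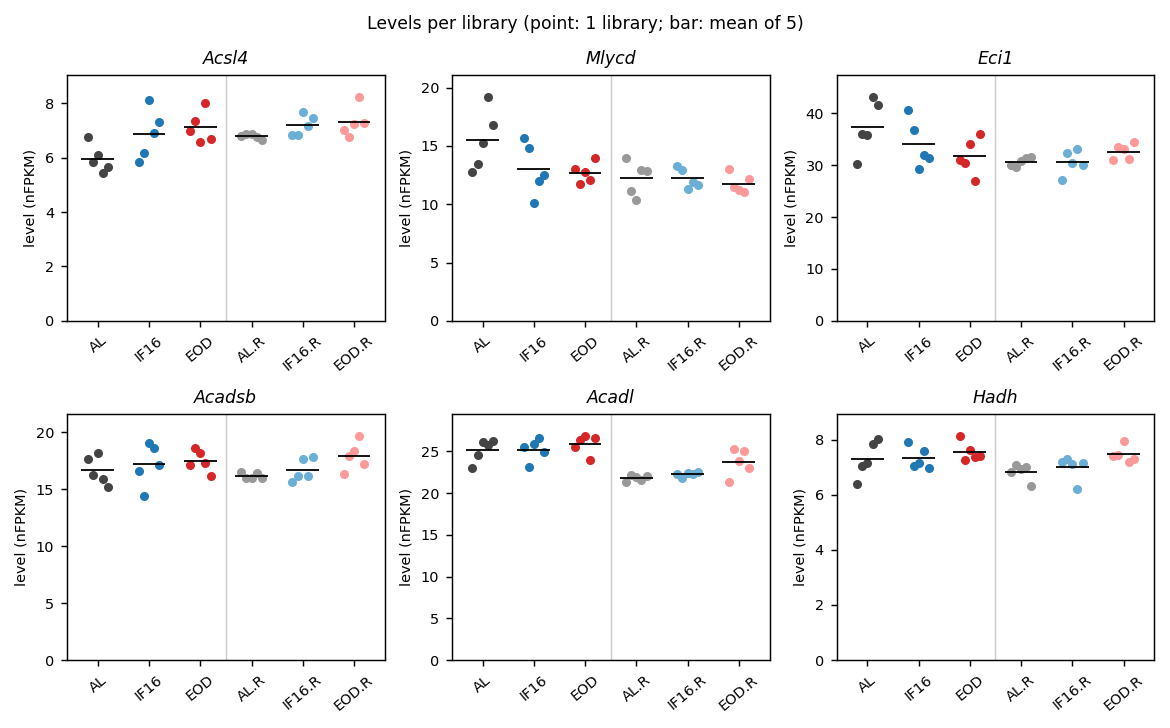
Level (nFPKM) of 6 members in each of the 30 libraries, by group, with the mean of 5 as a bar and a vertical rule between fasted and refed sets. Acsl4, Mlycd and Eci1 overlap between AL and both fasting groups, and Hadh alone of the 6 separates refed EOD (7.20 nFPKM and above) from refed AL (7.08 nFPKM and below).

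In refed IF16, the member of smallest p was Acsl5, a synthetase at low level in cerebellum. It stood at 3.58, 3.81, 3.36, 4.16 and 3.65 nFPKM in refed AL and 3.73, 3.10, 3.48, 3.04 and 3.30 nFPKM in refed IF16, with 3 of 5 libraries below all refed AL libraries (log2 fold change -0.16, SE 0.074, unadjusted p = 0.0444, adjusted p = 0.511). With the length gradient as a covariate the value was -0.074. Refed EOD against refed IF16 had Etfa, Acadl and Acadsb at an unadjusted p under 0.05, all higher in refed EOD. Etfa stood at 40.9, 39.9, 39.1, 39.1 and 39.6 nFPKM in refed IF16 and 41.1, 43.3, 42.7, 42.6 and 40.3 nFPKM in refed EOD (log2 fold change 0.086, SE 0.037, unadjusted p = 0.0323, adjusted p = 0.454). Acadl and Acadsb gave 0.098 and 0.11, with refed IF16 libraries at 22.3, 21.8, 22.4, 22.3 and 22.5 nFPKM and 15.6, 16.1, 17.7, 16.1 and 17.8 nFPKM. These libraries of refed EOD also enter the comparison with refed AL.

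Whether a regimen's difference from its controls changed with refeeding was tested as an interaction in one fit of all 30 libraries. For IF16, 0 of 33 members were called, where 0.0474% of 16877 genes were, and 0 had an unadjusted p under 0.05, where 7.21% of all genes did. For EOD, 0 of 33 were called, where 0.0119% of all genes were, and 2 had an unadjusted p under 0.05, where 10.3% of all genes did. DESeq2 called 0 of 33 in both. The members at that level in EOD were Eci1 (change in log2 fold change 0.32, SE 0.12, adjusted p = 0.458) and Etfa (0.21, SE 0.083, adjusted p = 0.466). In refed EOD, Eci1 stood at 31.03, 33.5, 33.2, 31.1 and 34.4 nFPKM, beside 29.96, 29.7, 30.8, 31.4 and 31.6 nFPKM in refed AL. Etfa in EOD stood at 41.2, 41.9, 48.4, 38.9 and 45.2 nFPKM. Without the 3 libraries of lowest length gradient no member had an unadjusted p under 0.05 in either interaction. The shares of all genes at that level in those fits are not given here.

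The control groups were compared with each other because the refed set rests on its own controls. Refed AL against AL called 15 of 33 members, 1 higher and 14 lower, or 45.5%, where 23.9% of 16877 genes were called, 11.5% higher and 12.4% lower (edgeR quasi-likelihood test in the fit of 30 libraries). Age, the set of mice, the dissection and the sequencing cannot be told apart here. An unadjusted p under 0.05 was met by 18 members, where 40% of all genes met it. The members' median was -0.12 (log2), beside -0.012 over all genes. The single higher member was Acsl6, at 38.9, 36.7, 36.5, 28.5 and 30.6 nFPKM in AL and 40.3, 42.4, 39.7, 38.4 and 38.8 nFPKM in refed AL (log2 fold change 0.22, adjusted p = 0.0272). Acsl3 was lower (33.4, 28.7, 33.5, 31.9 and 33.03 nFPKM in AL and 26.5, 25.2, 26.8, 28.9 and 28.8 nFPKM in refed AL, log2 fold change -0.24, adjusted p = 0.0317), and the share of Acsl6 in the summed synthetase level was 47.1% ± 1.64 in refed AL (SD, n = 5).

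Among the carnitine acyltransferases, Cpt1c, of the endoplasmic reticulum, was at 34.00, 38.9, 36.7, 48.3 and 44.4 nFPKM in AL and 32.1, 31.8, 32.5, 33.1 and 33.6 nFPKM in refed AL (log2 fold change -0.31, adjusted p = 0.0101), with no overlap. Cpt1a, which controls mitochondrial entry and is not a member, had means of 7.20 nFPKM in AL and 7.09 nFPKM in refed AL. Cpt2 was at 2.95, 3.77, 4.68, 4.82 and 4.43 nFPKM and 3.94, 3.09, 3.24, 3.37 and 3.25 nFPKM (log2 fold change -0.29, adjusted p = 0.0488), with overlap. Acadl, at 23.03, 24.5, 26.1, 25.7 and 26.2 nFPKM in AL, had the smallest p of the members (log2 fold change -0.20, adjusted p = 0.00815) and did not overlap with its refed AL values given above. Cpt1c, Acadl and Acaa1a were the 3 members lower without overlap, where 4.75% of all genes were. Hadha was at 22.5, 24.6, 25.97, 29.8 and 28.6 nFPKM in AL and 23.7, 21.8, 20.6, 23.5 and 23.8 nFPKM in refed AL (log2 fold change -0.21, adjusted p = 0.0184). Hsd17b10 was at 25.8, 29.8, 32.2, 45.1 and 39.1 nFPKM and 27.1, 27.9, 27.9, 27.9 and 27.9 nFPKM (log2 fold change -0.31, adjusted p = 0.0414), the spread in AL being set by replicates 4 and 5. Acaa2 was at 11.8, 10.2, 8.84, 8.98 and 9.65 nFPKM in refed AL (log2 fold change -0.48, adjusted p = 0.02).

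Eci1 and Eci2, both isomerases for unsaturated chains, were lower in refed AL (log2 fold change -0.28, adjusted p = 0.0238, and log2 fold change -0.22, adjusted p = 0.0314). Eci2 was at 12.8, 14.3, 13.9, 16.2 and 15.9 nFPKM in AL and 12.7, 12.8, 12.8, 12.2 and 12.3 nFPKM in refed AL. Etfa and Etfb were at 43.4, 40.5, 40.7, 38.6 and 39.1 nFPKM and 44.8, 40.7, 43.04, 48.4 and 45.2 nFPKM in refed AL (log2 fold change -0.24, adjusted p = 0.00821, and log2 fold change -0.43, adjusted p = 0.0204). For both subunits, AL replicate 1 alone fell inside the refed AL range. Acaa1a, the peroxisomal thiolase, was at 21.2, 22.6, 21.9, 26.02 and 23.5 nFPKM in AL and 19.8, 19.7, 20.4, 20.3 and 19.6 nFPKM in refed AL (log2 fold change -0.21, adjusted p = 0.0154). Acot7 was at 185, 183, 189.6, 211 and 205 nFPKM in refed AL (log2 fold change -0.40, adjusted p = 0.0126), and Mlycd at 13.9, 11.1, 10.3, 12.9 and 12.9 nFPKM (log2 fold change -0.34, adjusted p = 0.0216).

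Gene length and a few libraries moved with these differences between the controls. Pearson's r between log2 fold change and log2 length was 0.695 across the 33 members, against 0.3 across all genes. Of the 17 shorter members 11 were called, and of the 16 longer ones 4. The called shares of all shorter and all longer genes were not computed, so this split cannot be called particular to the members. With the length gradient as a covariate, 0 of 33 were called and 3 had an unadjusted p under 0.05. The share of all genes at that level in this fit is not given here. The members' median was -0.035, and Hsd17b10 had the opposite sign (0.045). The gradient itself ran from -0.19 to 0.016 in AL and from 0.013 to 0.033 in refed AL. It thus nearly separated the 2 groups, and as a covariate it takes up group differences of any source. No member was called without AL replicates 4 and 5 and IF16 replicate 1, and 3 were with choroid plexus content as a covariate. Leaving out single libraries gave 2 called members without AL replicate 4, 4 without AL replicate 5, 6 without refed AL replicate 2, 8 without refed AL replicate 3 and 18 without AL replicate 1. Calls over all genes moved with them, from 4030 to 830 without AL replicate 4 and to 6173 without AL replicate 1, and to 151 without the 3 libraries of lowest length gradient. Acadl and Etfa were called in all 10 fits that left out 1 control library, Cpt1c and Acaa1a in 9, Acot7 in 8, and the other 10 called members in 3 to 7. Without AL replicate 4, Etfb was at -0.28 and Hsd17b10 at -0.20. Oligodendrocyte markers were lower in refed AL (3 of 6 called, summed level 1180 to 1300 nFPKM against 1350 to 1600 in AL) and Purkinje cell markers higher (3 of 6 called, 1070 to 1130 against 842 to 992). Red blood cell markers were higher too, 3 of 5 called with a median of 1.18, and 2 of 6 granule cell markers were called higher. All 11 choroid plexus markers had a fold change below 0, with a median of -1.37 and 0 called. The part of these markers in the result was not tested.

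**Figure D4:**
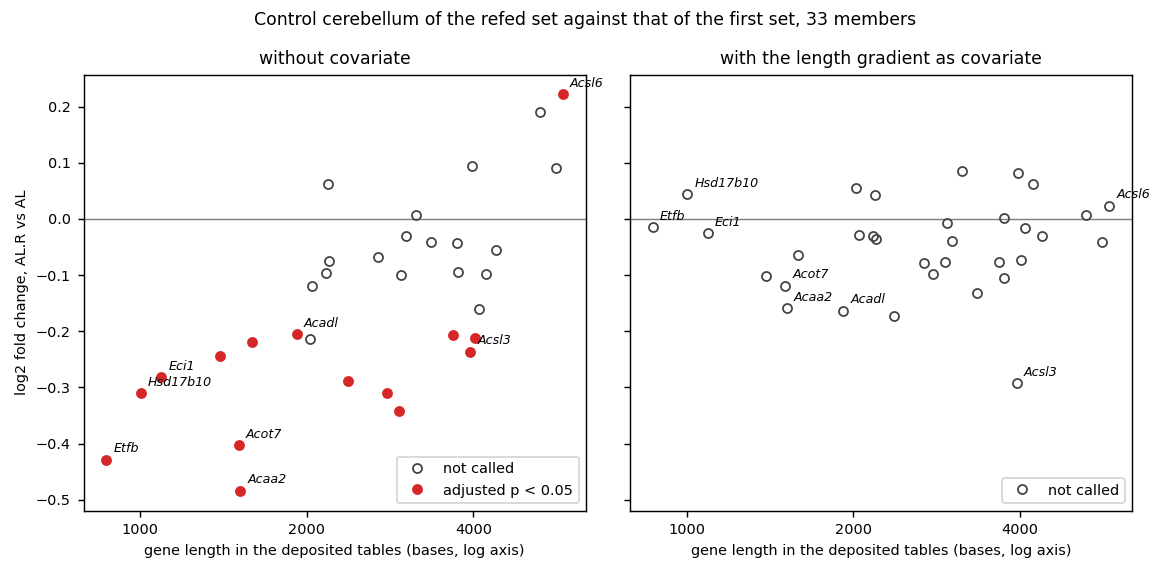
Log2 fold change of the 33 members in refed AL against AL by gene length (bases, log axis), without a covariate (left) and with each library's length gradient as a covariate (right), where filled points passed an adjusted p of 0.05. On the left 15 members are called and values fall towards short genes such as Etfb, and on the right 0 are called and the median is -0.035.

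Other genes of the pathway were taken from a list of 30 carriers, activating enzymes, peroxisomal enzymes and thioesterases, of which 28 were tested in the pairwise comparisons within each set. None of the 28 was called by edgeR in any of these. At an unadjusted p under 0.05, 0 were higher and 1 lower in IF16 against AL, 2 and 2 in EOD against AL, 4 and 0 in refed IF16 against refed AL, and 5 and 1 in refed EOD against refed AL. Of all genes, 4.35% were higher and 5.57% lower at that level in IF16 against AL, 7.02% and 7.4% in EOD against AL, 4.76% and 4.83% in refed IF16 against refed AL, and 4.51% and 3.99% in refed EOD against refed AL. Named after its values were seen, Cpt1a had the smallest p of this list in EOD against AL. Its mean was 9.23 nFPKM in EOD and 7.20 nFPKM in AL (log2 fold change 0.36, SE 0.074, adjusted p = 0.121), without overlap of the groups, and the ratio of Cpt1c to Cpt1a was 3.99 ± 0.413 in EOD (SD, n = 5). Cpt1a led in EOD against IF16 as well, with a mean of 7.24 nFPKM in IF16 (log2 fold change 0.35, adjusted p = 0.977). These groups did not overlap, at 8.71 nFPKM and above in EOD and 7.89 nFPKM and below in IF16, where 0.296% of all genes were higher without overlap. Refed AL, refed IF16 and refed EOD had Cpt1a means of 7.09, 7.27 and 7.09 nFPKM. Acot1, the cytosolic copy of Acot2, led in refed EOD, at 6.53, 5.91, 6.35, 6.26 and 6.66 nFPKM in refed AL and 7.65, 7.21, 7.79, 6.70 and 7.35 nFPKM in refed EOD (log2 fold change 0.21, adjusted p = 0.329).

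Regulators of fat use and PPAR-type target genes reported here formed a list of 14, of which 13 were tested. In EOD against AL, 1 of these 13 was called higher, Angptl4, where 0.0543% of all genes were called higher. At an unadjusted p under 0.05, 4 were higher and 1 lower, beside 7.02% and 7.4% of all genes. Of the 13, 11 had a log2 fold change above 0, where 53.3% of all genes were below 0. Their median was 0.28, beside -0.018 over all genes. The list was chosen with earlier results of these data known, so its counts and median are descriptions only. Angptl4, a fasting-induced inhibitor of lipoprotein lipase, stood at 0.704, 0.905, 0.709, 1.22 and 1.12 nFPKM in AL and 1.88, 1.89, 2.72, 2.56 and 2.91 nFPKM in EOD (log2 fold change 1.37, adjusted p = 0.0233). Every EOD library lay above every AL library. IF16 libraries stood at 0.881, 1.25, 1.18, 1.52 and 1.91 nFPKM, 3 of 5 above all AL libraries (log2 fold change 0.53, adjusted p = 0.441). Without EOD replicate 1, which held liver transcripts, Angptl4 was still called (log2 fold change 1.44, adjusted p = 0.0221).

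The call of Angptl4 was lost without AL replicate 1, 2 or 3 or EOD replicate 3, 4 or 5, with an adjusted p of up to 0.0845, and over the 10 fits that left out 1 library the log2 fold change was 1.28 to 1.49. In the alternatives other than left-out single libraries it was called in 8 of 8, at a log2 fold change of 1.37 to 1.63. Pdk4, a kinase that shuts pyruvate oxidation, stood at 2.35, 2.57, 2.51, 1.72 and 2.28 nFPKM in AL, 2.19, 2.35, 3.36, 5.03 and 5.21 nFPKM in IF16 and 3.58, 3.80, 3.51, 3.28 and 4.45 nFPKM in EOD. It was not called (log2 fold change 0.66, adjusted p = 0.347 in IF16, and log2 fold change 0.71, adjusted p = 0.251 in EOD), and 3 of 5 IF16 libraries and all EOD libraries lay above AL.

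**Figure D5:**
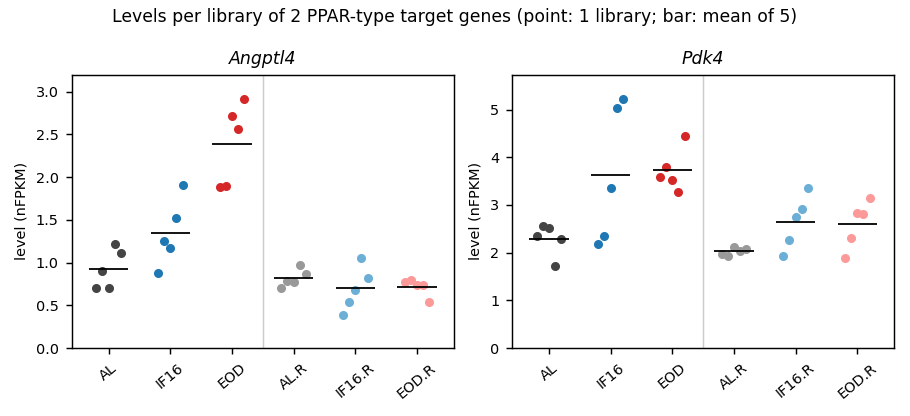
Level (nFPKM) of Angptl4 and Pdk4 in each library, by group, with the mean of 5 as a bar. Every EOD library lies above every AL library for both genes, and the refed libraries stay at or below 1.06 nFPKM for Angptl4.

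Within the refed set and in the interactions, no gene reported from either list was called in the edgeR fit to all libraries. In refed EOD, Angptl4 stood at 0.779, 0.794, 0.743, 0.742 and 0.545 nFPKM, beside 0.707, 0.784, 0.779, 0.969 and 0.862 nFPKM in refed AL, and the test of its change with refeeding gave -1.56 (SE 0.30, adjusted p = 0.0754). It was called in 5 of 7 alternatives, with an adjusted p of 0.00117 by DESeq2 and a value of -1.82 without the 3 libraries of lowest length gradient, and in none of the fits that left out 1 library. Pdk4 in refed AL, refed IF16 and refed EOD had means of 2.03, 2.64 and 2.60 nFPKM, and refed IF16 against refed AL gave log2 fold change 0.37, adjusted p = 0.383. Ppargc1b, a coactivator of mitochondrial genes, led refed EOD against refed IF16, at 9.79, 9.55, 11.96, 11.1 and 10.4 nFPKM in refed IF16 and 7.70, 7.73, 7.09, 8.60 and 7.66 nFPKM in refed EOD (log2 fold change -0.44, adjusted p = 0.115), without overlap. It was called in 3 of 7 alternatives (adjusted p = 0.000372 by DESeq2) and without refed IF16 replicate 1 or refed EOD replicate 1, and was at -0.22 (adjusted p = 1) with the length gradient as a covariate. Plin2, which coats lipid droplets, led the interaction of IF16 (0.36, adjusted p = 0.426), with IF16 libraries at 8.42, 8.33, 7.07, 7.69 and 7.08 nFPKM and AL libraries at 7.23, 9.08, 9.75, 9.56 and 10.1 nFPKM.

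In refed AL against AL, 6 of 29 tested genes of the wider pathway list were called, or 20.7%, where 23.9% of all genes were called, and all 6 were lower, as 12.4% of all genes were: Acot1, Acot13, Acad9, Amacr, Phyh and Ech1, with log2 fold changes from -0.41 for Acot13 to -0.14 for Acad9. Ech1 had the opposite sign with the length gradient as a covariate (0.0049). Of the regulators reported, 4 of 13 were called higher, where 11.5% of all genes were, namely Ppargc1a (0.40), Acaca (0.28) and the AMP-activated kinase subunits Prkaa1 (0.28) and Prkaa2 (0.44). With that covariate none of these 10 genes was called, and Ppargc1a was at 0.12, Acaca at 0.19, Prkaa1 at 0.068 and Prkaa2 at 0.046 (adjusted p = 0.859, the highest of these 4).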

How the data were processed

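RNA-seq of 30 cerebellum libraries was used, and 12 ChIP and input samples were not analysed here. The authors deposited read counts per gene (STAR 2.5 and HTSeq 0.6.1 on mm10, per the submitters' processing notes) in 2 tables of 15 libraries. The deposited FPKM values equal counts divided by gene length and by the total count, to a relative difference of 5e-12 at counts of 10 or more, and served for that check. Strand handling is not given in the sources used here. Groups came from the labels.

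Counts were filtered by filterByExpr, scaled by TMM and tested with edgeR 4.0.16 (quasi-likelihood test, R 4.3.3), 1 fit per table, with Benjamini-Hochberg adjustment over all genes tested and a threshold of 0.05. A fit of all 30 libraries gave the interactions with refeeding and refed AL against AL. Standard errors were derived from the fold change and its F statistic. Alternatives were DESeq2 1.42.0, RLE size factors, no filter, covariates, a replicate block and leaving out libraries. The fits were tested on simulated data. Library totals were 26799825 to 36167435 counts. No pair of the 60 replicate pairs agreed within sampling noise (chi-square per degree of freedom from 4.25 to 135).

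The members and lists were chosen with earlier results of these data known. Values per library are given for members called in any comparison, for up to 3 members of smallest unadjusted p under 0.05 in each comparison, and for the 3 highest and 3 lowest members in AL. From the other lists, genes called and the gene of smallest p in each comparison are named. One gene of the list of regulators is not reported here.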

Additional observations from a re-analysis of the deposited data

Results flagged for a closer look

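Of 198 groups of 5 libraries over the 33 members, 7 held a library set apart from the other 4 by a gap above Dixon's 95% critical value, which chance gives in about 1 of 20 groups. Cpt2 in refed EOD replicate 3 was at 4.04 nFPKM, with the others at 3.27 to 3.40. Hadha in IF16 replicate 1 was at 29.4 nFPKM, with the others at 23.7 to 25.0. Hadhb in refed AL replicate 3 was at 14.5 nFPKM, with the others at 16.1 to 16.7. Hadh in refed IF16 replicate 4 was at 6.22 nFPKM, with the others at 7.12 to 7.31. Hsd17b10 was low in refed AL replicate 1 (27.1 nFPKM, others 27.9 to 28.0) and in refed EOD replicate 1 (25.8 nFPKM, others 28.5 to 29.4). Acox3 in AL replicate 5 was at 6.08 nFPKM, with the others at 6.83 to 6.99.

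Of 54 groups over the marker lists, 6 held such a library, given here as mean log2 levels. Liver markers were at 2.39 in EOD replicate 1 (others -3.22 to -2.62), at -1.93 in refed EOD replicate 5 (others -3.21 to -3.03) and at -2.81 in refed AL replicate 1 (others -3.36 to -3.20). Oligodendrocyte markers were at 7.40 in refed IF16 replicate 5 (others 7.04 to 7.14) and at 7.34 in refed EOD replicate 5 (others 7.11 to 7.16). Granule cell markers were at 7.11 in refed EOD replicate 3 (others 7.18 to 7.20).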

How the results depend on the processing

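In the 6 pairwise comparisons within a set and in both interactions, 0 of 33 members were called in every alternative run, DESeq2 and each left-out library included. Refed AL against AL called 15 members, and 2 (without AL replicate 4) to 18 (without AL replicate 1) when single libraries were left out. With covariates or exclusions chosen after seeing the data, it called 0 with the length gradient (median log2 fold change -0.0349), 3 with choroid plexus content and 0 without AL replicates 4 and 5 and IF16 replicate 1. Hsd17b10 and Ech1 changed sign with the length gradient, to 0.0449 and 0.00494. The cause was not tested. Replicate numbers were shared by the groups, and the main fits did not take them as pairs. In the first set, deviations of same-numbered libraries correlated from -0.534 to 0.322 (median -0.044, against -0.0022 for different numbers). There, 0 of 15 libraries correlated best with their own number. In the refed set they correlated from -0.0545 to 0.427 (median 0.10, against -0.042), and 7 of 15 did. Same-numbered refed libraries were thus more alike by median, and the reason was not tested. With the replicate block 0 members were called, and all genes called numbered 5 in IF16, 4 in EOD, 0 in EOD against IF16, 95 in refed IF16, 45 in refed EOD, 40 in refed EOD against refed IF16, and 11 and 10 in the interactions. Without the block, the 3 refed comparisons called 28, 7 and 3 genes in the same order. Over the alternatives other than left-out single libraries, calls among all genes ranged from 3 to 96 in IF16 against AL and from 2 to 128 in EOD against AL.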
